A study of Mus musculus with 12 samples.

Results

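The genes described here are the extracellular and receptor-level components of WNT signalling, with a few of its intracellular regulators, in the nucleus pulposus of mice lacking Opa1. Members were found by gene symbol: every Wnt, Frizzled (Fzd), Dkk, Sfrp, R-spondin (Rspo), Nkd and Axin gene in the count table, together with Lrp5, Lrp6, Ror1, Ror2, Frzb, Wif1, Lgr5, Znrf3, Ctnnb1, Tcf7 and Lef1. This gave 56 genes of the 32285 counted, of which 33 passed the filter on low counts and were tested and 23 did not pass it. The 56 are 19 WNT ligands, 10 Frizzled receptors, 4 other receptors, 10 secreted antagonists, 6 genes of the R-spondin axis and 7 intracellular genes.

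Bulk RNA sequencing was run on tail nucleus pulposus, the gel-like centre of the intervertebral disc, from 6 Opa1cKO and 6 WT mice aged 12 months, each library from a different mouse, on a C57BL/6-129/SvEv background. In Opa1cKO mice the gene for OPA1, the GTPase that fuses inner mitochondrial membranes, was deleted at 3 months of age by AcanCre, a tamoxifen-activated recombinase driven by the aggrecan gene, which disc and cartilage cells express. Mice of both genotypes received tamoxifen at 100 mg/kg on 3 consecutive days and were then kept for another 9 months. The sources used here do not say whether WT mice carried AcanCre or floxed alleles, and cells without aggrecan expression would keep Opa1. Labelled sex was unbalanced, with 2 females and 4 males in Opa1cKO against 4 females and 2 males in WT. The series text asks how the transcriptome of this tissue changes when Opa1 is lost.

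WNT proteins are secreted, lipid-modified ligands that bind Frizzled receptors. With the co-receptors LRP5 or LRP6 they stop the AXIN-based complex from degrading beta-catenin, which then activates target genes with TCF/LEF factors; with ROR receptors and planar polarity proteins they act without beta-catenin. Secreted proteins of the DKK, SFRP and WIF families block ligands or co-receptors, while R-spondins protect Frizzled receptors from the ubiquitin ligase ZNRF3. WNT signalling is known to act in the notochord, from which the nucleus pulposus descends, and in cartilage and disc maintenance.

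Library totals ran from 37268242 to 56618266 counts, so that 37.2 to 56.9 reads stand behind 1 CPM (counts per 1e6, with TMM scaling of library totals). Opa1 had 30.2, 40.8 and 47.7 CPM as the lowest, median and highest Opa1cKO values, against 69.3, 108 and 118 CPM in WT. The ranges did not overlap, and the log2 fold change was -1.22 (SE 0.12, edgeR adjusted p = 3.05e-05). Reads of Xist and of 4 Y-linked genes went against the labelled sex in 4 libraries: Opa1cKO 4, WT 5 and WT 6, labelled male, had Xist and almost no Y-linked reads, and WT 4, labelled female, the reverse. Results are therefore also given without these 4 libraries, a fit in which the genotype difference rests on Opa1cKO 5 and 6 against WT 1, 2 and 3. Nucleus pulposus and notochord markers were abundant in all libraries, with a summed level of 27348 to 49503 CPM in Opa1cKO and 34579 to 46786 CPM in WT; 8 of the 9 were tested.

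These markers and those of other cell types were compared as sums per library by a two-sided exact permutation test. The test covered 12 lists, and none passed after adjustment. The nucleus pulposus and notochord list had an exact permutation p of 0.779 (adjusted p = 0.85), with 0 of 8 tested genes called. Schwann cell and nerve markers lay at 29.7 to 40.3 CPM in Opa1cKO and 23.4 to 31.9 CPM in WT (exact permutation p = 0.00433, adjusted p = 0.052; 0 of 5 tested called, Sox10 at 0 or near it). Epidermal markers lay at 11.2 to 43.3 CPM in Opa1cKO and 6.35 to 18.0 CPM in WT (exact permutation p = 0.026, adjusted p = 0.13). That difference was almost all of 1 gene, Krtdap, which was called higher, while Krt5, Krt14 and Lor were at or near 0. Leukocyte markers lay at 96.4 to 117 CPM in Opa1cKO and 103 to 196 CPM in WT (exact permutation p = 0.0325, adjusted p = 0.13), with Cd68 called higher, Cd163 and Csf1r lower, and Adgre1 near 0. The other 8 lists (annulus and tendon, growth plate and endplate, bone, blood, endothelium, muscle, fibroblast, fat) had exact permutation p from 0.0758 to 0.981 and no called gene. Opa1cKO 6 stood apart in the growth plate and endplate list, with a sum of 38.2 CPM against 6.09 to 18.0 CPM in the other 11 libraries. Col10a1, the collagen of hypertrophic chondrocytes, was at 19.1 CPM there. Of that list 3 of 6 genes were tested, and Ihh and Matn1 were at or near 0. The nucleus pulposus sum of Opa1cKO 6, at 27348 CPM, was the lowest of the 12. Opa1cKO 3 stood apart in the fibroblast list, with a sum of 174 CPM against 6.18 to 72.3 CPM in the other 11 libraries. Dcn alone was at 170 CPM in Opa1cKO 3. The part of any of these cells in the WNT results was not tested.

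Of the 33 tested WNT genes, 5 were higher in Opa1cKO (Wnt11, Wnt10a, Wnt9a, Axin2 and Nkd2) and 3 lower (Wnt16, Fzd4 and Lrp5) at an edgeR adjusted p below 0.05. That is 24.2% of the tested members, beside 10.2% of all 15229 genes tested (5.1% higher and 5.13% lower). The median log2 fold change of the 33 was 0.03, against 0.01 for all genes tested, with 18 of the 33 above 0 and 15 below. For 3 of the 33, Wnt11, Fzd4 and Lrp5, no Opa1cKO library fell in the WT range, or 9.09%, beside 6.41% of all genes tested. The count was 9 members with sex taken from sex-linked reads (11.7% of all genes), 7 without Opa1cKO 6 (5.34% of all genes) and 5 without WT 5 (7.1% of all genes). It was 1, Axin2, without the 4 libraries of contradicted sex, where 2.07% of all genes were called. In whole tissue, fewer cells of a type and less RNA per cell cannot be told apart.

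The regions upstream of 3 of these genes are shown because each stands for a different behaviour: Wnt11 is the ligand whose ranges separated upward, Axin2 is the textbook feedback target of beta-catenin, and Wnt16 is the ligand that fell. Each is the RefSeq window from 250 bases before to 50 bases after the gene's start, on the plus strand of GRCm38.p6 (the mm10 assembly). Capitals mark the TCF/LEF core (CTTTGA or CTTTGT, searched on both strands) and the core of the hypoxia response element (ACGTG, both strands).
Wnt11 promoter, chr7:98834862-98835161: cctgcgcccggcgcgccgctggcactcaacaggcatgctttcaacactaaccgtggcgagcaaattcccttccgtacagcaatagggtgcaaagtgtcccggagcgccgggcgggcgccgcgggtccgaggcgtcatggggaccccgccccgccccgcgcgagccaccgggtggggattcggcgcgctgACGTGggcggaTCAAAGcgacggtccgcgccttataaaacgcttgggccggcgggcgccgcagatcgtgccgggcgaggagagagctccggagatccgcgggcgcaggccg
Axin2 promoter, chr11:108920099-108920398: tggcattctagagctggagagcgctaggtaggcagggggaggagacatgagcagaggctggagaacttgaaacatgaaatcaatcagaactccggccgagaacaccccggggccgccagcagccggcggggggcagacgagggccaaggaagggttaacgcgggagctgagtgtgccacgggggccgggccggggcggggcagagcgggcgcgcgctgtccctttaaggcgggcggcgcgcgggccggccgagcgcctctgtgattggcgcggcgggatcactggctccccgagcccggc
Wnt16 promoter, chr6:22287977-22288276: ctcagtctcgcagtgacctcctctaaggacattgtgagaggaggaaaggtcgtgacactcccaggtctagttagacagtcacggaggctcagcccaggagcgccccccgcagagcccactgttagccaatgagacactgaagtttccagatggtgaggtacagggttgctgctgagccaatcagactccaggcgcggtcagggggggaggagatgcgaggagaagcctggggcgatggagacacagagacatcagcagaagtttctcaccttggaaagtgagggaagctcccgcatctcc
RefSeq gives 2 Wnt11 windows; the second, not shown, holds neither core. The Wnt11 window shown holds ACGTG with its first base 61 bases before the start, and TCAAAG, which is CTTTGA on the other strand, at 50 bases before it; the Axin2 and Wnt16 windows hold neither core. Sequences were found for 6 of the 8 called members and 22 of the 33 tested. Counted by window, the TCF/LEF core was in 1 of 7 windows of called members and 7 of 30 of tested members, beside 31.2% of the 32851 windows of all genes. The hypoxia core was in 2 of the 7 (1 each of Wnt11 and Wnt9a) and 6 of the 30, beside 19.6%. A match to so short a word describes these letters only.

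Levels between genes are compared as TPM, the deposited length-scaled values. The highest member was Ctnnb1, which encodes beta-catenin, at 283 ± 22.3 TPM in Opa1cKO and 299 ± 24.5 TPM in WT (SD, n = 6 each). The co-receptor genes Lrp6 and Lrp5 stood at 164 ± 10.03 and 139 ± 16.9 TPM in Opa1cKO, against 183 ± 20.5 and 197 ± 28.3 TPM in WT. Fzd7 was the highest Frizzled gene at 177 ± 14.0 TPM in Opa1cKO and 153 ± 22.5 TPM in WT. Secreted antagonists were lower, led by Sfrp5 at 31.4 ± 6.62 TPM in Opa1cKO and 29.5 ± 13.6 TPM in WT. Axin2, Nkd1, Nkd2 and Lef1, which beta-catenin is known to induce in many tissues, were among the lowest tested members, with means of 0.21 to 2.25 TPM in Opa1cKO and 0.099 to 0.69 TPM in WT.

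**Figure D1:**
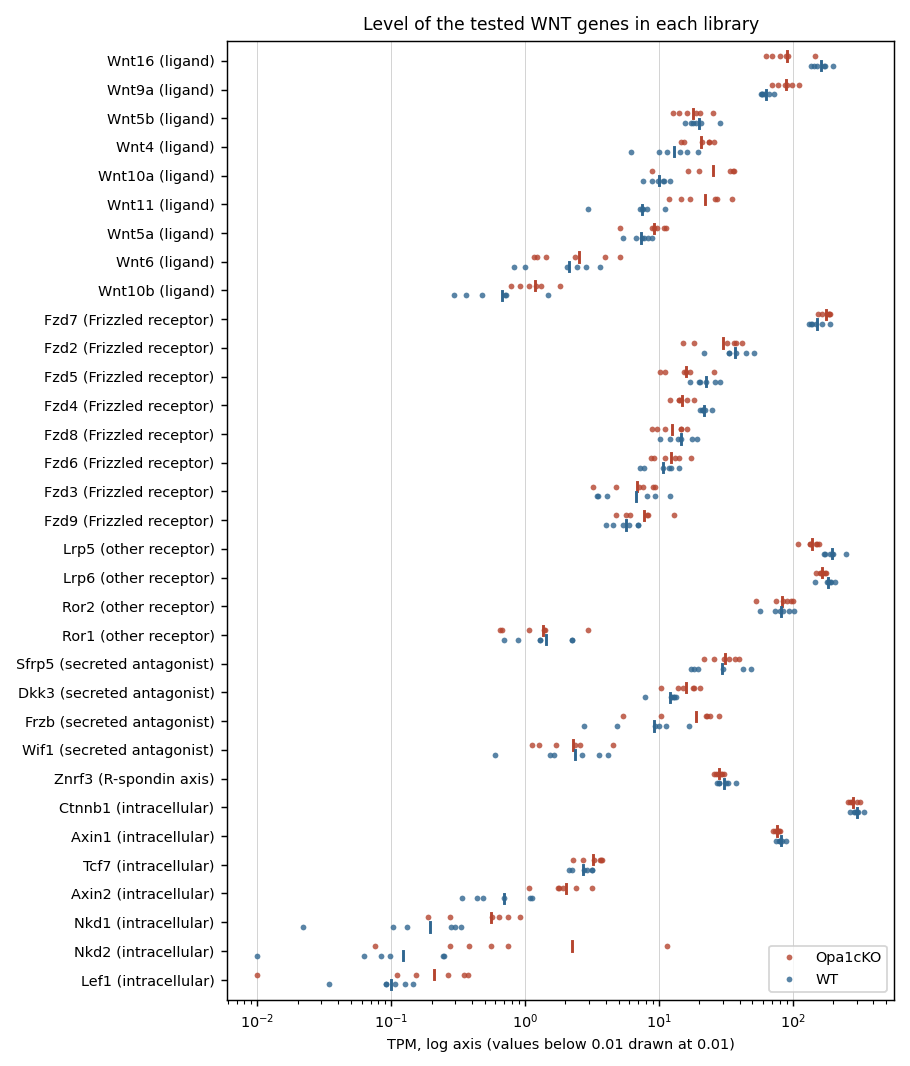
Level of each of the 33 tested WNT genes in TPM on a log axis, 1 point per library (Opa1cKO red, above; WT blue, below), with the mean as a vertical tick and values below 0.01 TPM drawn at 0.01; genes are ordered by role and, within it, by WT mean. Wnt16 and Wnt9a lead the ligands and Fzd7 the Frizzled receptors in both genotypes, and the Wnt11 points of the 2 genotypes do not overlap.

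Among the ligands, 9 of 19 were tested, and 3 were higher, 1 lower and 5 not called. The share called was 44.4% of the tested ligands, beside 10.2% of all genes tested. Wnt11 (ENSMUSG00000015957, chromosome 7, 98835112 to 98855195, plus strand of mm10), a ligand best known for signalling without beta-catenin, had 11.04, 19.2 and 32.5 CPM as the lowest, median and highest Opa1cKO values, against 2.698, 6.97 and 10.1 CPM in WT. All 6 Opa1cKO libraries lay above all 6 WT libraries. It was 3.02-fold higher (log2 fold change 1.596, SE 0.33, edgeR adjusted p = 0.0102). It passed without any 1 library (adjusted p up to 0.0318), and without the libraries of contradicted sex it stood at 1.81 (SE 0.57, adjusted p = 0.141). A processed pseudogene on the opposite strand, Gm8398, shares 8.8% of its exon bases.

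Wnt16 (ENSMUSG00000029671, chromosome 6, 22288227 to 22298522, plus strand), a ligand known in developing synovial joints and in bone, went the other way. Its lowest, median and highest values were 61.8, 78.9 and 142 CPM in Opa1cKO, against 132, 156 and 186 CPM in WT. Of the Opa1cKO libraries, 5 lay below every WT library, and Opa1cKO 5 lay within the WT range. Wnt16 fell to 0.566 of the WT level (log2 fold change -0.82, SE 0.19, edgeR adjusted p = 0.0144). It was not called without WT 5 (-0.68, adjusted p = 0.0594) or without the libraries of contradicted sex (-0.54, adjusted p = 0.357), and without Opa1cKO 5, the high library, it stood at -1.15 (adjusted p = 0.000143). Among libraries without Y-linked reads Wnt16 was at -0.66 and not called (adjusted p = 0.124).

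Wnt9a (ENSMUSG00000000126, chromosome 11, 59306928 to 59333552, plus strand), which like Wnt16 is known from joint formation, had 48.2, 66.3 and 78.5 CPM in Opa1cKO, against 43.1, 44.8 and 52.8 CPM in WT. The overlap came from Opa1cKO 6, the lowest of its genotype. It rose 1.35-fold (log2 fold change 0.44, SE 0.11, edgeR adjusted p = 0.0229). The call was lost without WT 5 or WT 6 (0.37 and 0.36, adjusted p = 0.0909 and 0.101), and it stood at 0.16 without the libraries of contradicted sex (adjusted p = 0.554). The highest values of all libraries were those of Opa1cKO 1, 2 and 3, which had Y-linked reads (71.1, 78.5 and 68.3 CPM). WT 4, which also had such reads, was at 45.9 CPM. Among libraries without Y-linked reads Wnt9a was at 0.31 and not called (adjusted p = 0.123).

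Wnt10a (ENSMUSG00000026167, chromosome 1, 74791516 to 74804179, plus strand), a beta-catenin ligand known from teeth and skin, had 4.90, 14.2 and 20.2 CPM in Opa1cKO, against 4.01, 5.59 and 6.63 CPM in WT. Opa1cKO 1, 2 and 3, the 3 Opa1cKO libraries with Y-linked reads, had 18.2, 18.7 and 20.2 CPM, while Opa1cKO 4, 5 and 6 had 8.93, 4.90 and 10.2 CPM. WT 4, the WT library with such reads, had 5.46 CPM and lay inside the WT range. The fold change was 1.05 on the log2 scale (SE 0.31, edgeR adjusted p = 0.0463). Wnt10a was called without Opa1cKO 4 or Opa1cKO 5 and lost its call without any other single library (adjusted p up to 0.16), and among libraries without Y-linked reads it stood at 0.56 (adjusted p = 0.186). Wnt6, its neighbour 6193 bases upstream on the same strand, was at 0.56 to 2.37 CPM in Opa1cKO and 0.40 to 1.76 CPM in WT and was not called (-0.09, adjusted p = 0.937); Opa1cKO 1 and 2 were the only libraries above the WT range.

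Of the 5 ligands not called, Wnt4 had 12.7, 20.5 and 22.7 CPM in Opa1cKO and 5.71, 12.3 and 17.9 CPM in WT (log2 fold change 0.55, SE 0.24, edgeR adjusted p = 0.176; 0.71, adjusted p = 0.0418, without WT 3). Wnt5b, with 7.02, 10.2 and 14.9 CPM in Opa1cKO against 9.18, 10.8 and 16.8 CPM in WT, was at -0.25 (adjusted p = 0.458). Wnt5a, a ligand of ROR receptors, was at 0.26 (adjusted p = 0.415), with Opa1cKO 6 below every WT library and the other 5 above every WT library; without Opa1cKO 6 it was at 0.48 and called (adjusted p = 0.0474). Wnt10b was at 0.79 (adjusted p = 0.262) and below 1.3 CPM in every library.

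**Figure D2:**
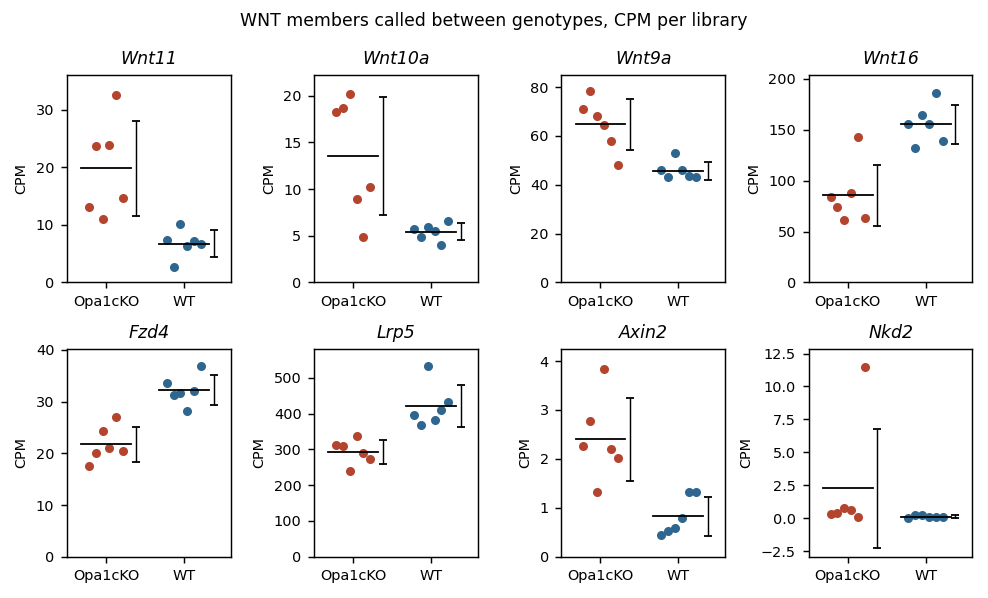
CPM of the 8 WNT genes called between genotypes, 1 point per library in order of replicate number (Opa1cKO red, left; WT blue, right), with the mean as a horizontal line and the SD (n = 6) as a bar. Wnt11, Fzd4 and Lrp5 show no overlap, the Wnt10a values of Opa1cKO 1 to 3 lie apart from those of Opa1cKO 4 to 6, and the mean of Nkd2 is set by Opa1cKO 6.

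The make-up of the ligand pool can be read from the TPM values. The summed TPM of the 19 ligands was 279 ± 42.8 in Opa1cKO and 286 ± 35.2 in WT (SD, n = 6 each). Wnt16 made up 32.1 ± 7.54% of that sum in Opa1cKO, with a range of 25.1 to 45.9%, against 56.8 ± 3.37% in WT, with a range of 52.4 to 62.0%. The Wnt9a share was 32.4 ± 4.42% in Opa1cKO and 22.1 ± 1.81% in WT. Within Opa1cKO the order of these ligands varied: Wnt16 held 45.9% and Wnt9a 24.4% in Opa1cKO 5, while in Opa1cKO 2 and 3 Wnt16 held 25.1% and 25.7% and Wnt9a 35.0% and 37.2%. Wnt11 held 7.79 ± 2.45% in Opa1cKO and 2.55 ± 0.72% in WT, and Wnt10a 9.28 ± 4.35% in Opa1cKO and 3.55 ± 0.71% in WT. The shares of Wnt16 did not overlap between genotypes, though its CPM values did through Opa1cKO 5. The shares of Wnt11 did not overlap either, at 4.85 to 11.1% in Opa1cKO and 1.24 to 3.41% in WT. These shares restate the levels above as a description, and no test was run on them.

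**Figure D3:**
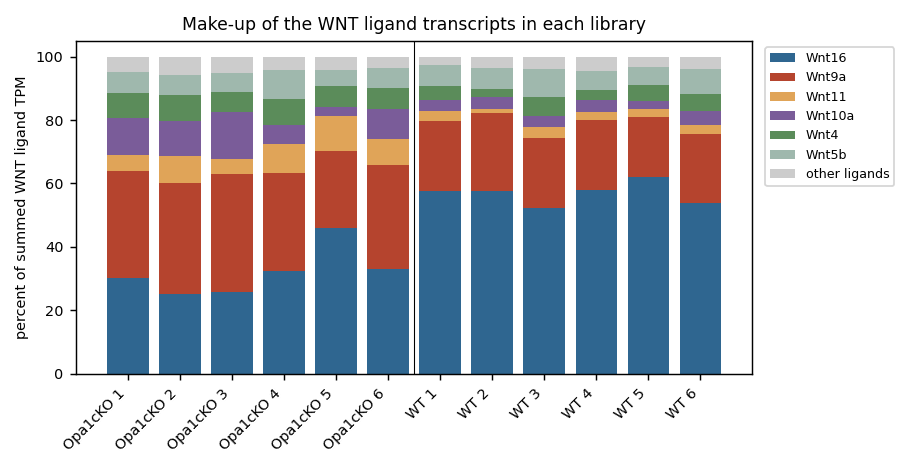
Share of each WNT ligand in the summed ligand TPM of each library, in percent, as stacked bars (Opa1cKO libraries left of the line, WT libraries right). Wnt16 holds 25.1 to 45.9% of the sum in Opa1cKO libraries and 52.4 to 62.0% in WT libraries.

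Among the Frizzled receptors 8 of 10 were tested and 1 was called, or 12.5%, beside 10.2% of all genes tested. Fzd4 (ENSMUSG00000049791, chromosome 7, 89404355 to 89413134, plus strand), a receptor for WNT ligands and for Norrin, had 17.6, 20.7 and 27.1 CPM as the lowest, median and highest Opa1cKO values, against 28.2, 31.9 and 37.0 CPM in WT. Every Opa1cKO library lay below every WT library. It fell to 0.676 of the WT level (log2 fold change -0.56, SE 0.11, edgeR adjusted p = 0.00654) and passed without any 1 library (adjusted p up to 0.0347). Without the libraries of contradicted sex it stood at -0.44 (SE 0.18, adjusted p = 0.207). Fzd7, the most abundant, was at 156, 177 and 193 CPM in Opa1cKO and 131, 144 and 192 CPM in WT and was not called by edgeR (log2 fold change 0.15, SE 0.09, adjusted p = 0.338).

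Fzd5 had 15.8, 23.4 and 39.5 CPM in Opa1cKO, against 26.1, 32.6 and 42.2 CPM in WT. There 5 Opa1cKO libraries lay below every WT library and Opa1cKO 5 lay high, the same library that was high for Wnt16. Over all libraries edgeR put Fzd5 at a log2 fold change of -0.52 (SE 0.21, adjusted p = 0.147), and without Opa1cKO 5 it passed (-0.92, adjusted p = 0.000907). A transcript on the opposite strand, Gm38058, shares 17.8% of its exon bases. Fzd2 had 12.5, 27.4 and 32.2 CPM in Opa1cKO and 17.4, 29.5 and 41.0 CPM in WT (log2 fold change -0.35, adjusted p = 0.478). The other 4 were Fzd8 at -0.39, Fzd6 at 0.38, Fzd9 at 0.24 and Fzd3 at 0.03, with edgeR adjusted p from 0.134 to 0.972; without Opa1cKO 5, Fzd6 was at 0.53 (adjusted p = 0.0488). Fzd7 made up 64.0 ± 2.58% of the summed Frizzled TPM in Opa1cKO and 56.1 ± 3.85% in WT, and the sums were 278 ± 30.8 TPM in Opa1cKO and 272 ± 33.3 TPM in WT.

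Lrp5 (ENSMUSG00000024913, chromosome 19, 3584828 to 3686564, minus strand), the co-receptor whose variants are known to change bone mass, was lower in Opa1cKO. Its lowest, median and highest values were 241, 299 and 337 CPM in Opa1cKO, against 369, 403 and 534 CPM in WT. The ranges did not overlap. The log2 fold change was -0.54 (SE 0.11, edgeR adjusted p = 0.00949), it passed without any 1 library (adjusted p up to 0.0348), and it was -0.62 without the libraries of contradicted sex (SE 0.20, adjusted p = 0.124). Among libraries without Y-linked reads Lrp5 was at -0.51 and not called (adjusted p = 0.0532). Its partner Lrp6 had 437, 489 and 540 CPM in Opa1cKO and 472, 562 and 587 CPM in WT, which did not pass (-0.16, SE 0.09, adjusted p = 0.274). The ratio of Lrp5 to Lrp6 TPM was 0.853 ± 0.145 in Opa1cKO and 1.08 ± 0.14 in WT. Of the ROR tyrosine kinase receptors, Ror2 had 50.5, 82.7 and 89.5 CPM in Opa1cKO and 53.0, 78.3 and 96.7 CPM in WT (log2 fold change -0.05, adjusted p = 0.878), and Ror1 was below 4 CPM in every library (-0.04, adjusted p = 0.966).

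No secreted antagonist was called by edgeR among the 4 of 10 that were tested. Of these 1, Dkk3, had an unadjusted edgeR p below 0.05, and DESeq2 called it. The share called was 0%, beside 10.2% of all genes tested, and 4 genes are too few to tell these shares apart. Dkk3, a divergent member of the Dickkopf family, had 7.30, 12.0 and 15.3 CPM in Opa1cKO and 5.81, 9.28 and 10.2 CPM in WT (log2 fold change 0.49, SE 0.18, edgeR adjusted p = 0.0903; DESeq2 adjusted p = 0.0458). Frzb, a cartilage WNT antagonist, was spread widely, with 3.90, 16.03 and 19.99 CPM in Opa1cKO and 2.105, 6.86 and 11.1 CPM in WT. Its log2 fold change of 0.91 was not called (SE 0.47, adjusted p = 0.258). Opa1cKO 5 and Opa1cKO 2 lay inside the WT range, and the other 4 above it. Sfrp5 had 9.36, 13.4 and 16.5 CPM in Opa1cKO and 7.32, 10.4 and 20.1 CPM in WT (0.02, adjusted p = 0.976), and Wif1 stood at -0.07 (adjusted p = 0.943).

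The R-spondin axis was hardly represented. Only Znrf3, the ubiquitin ligase that removes Frizzled receptors from the cell surface, was tested of its 6 genes, with 43.3, 49.0 and 51.2 CPM in Opa1cKO and 48.7, 50.7 and 65.9 CPM in WT. Its log2 fold change of -0.20 was not called (SE 0.08, edgeR adjusted p = 0.133), except without Opa1cKO 5 (-0.27, adjusted p = 0.0402). Rspo1, Rspo2, Rspo3, Rspo4 and the R-spondin receptor gene Lgr5 had at most 4 counts in any library.

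Of the 7 intracellular genes, all tested, 2 were higher and none lower. That is 28.6%, beside 10.2% of all genes tested, and the Nkd2 call, described below, rests on Opa1cKO 6. Axin2 (ENSMUSG00000000142, chromosome 11, 108920349 to 108950783, plus strand), a scaffold of the beta-catenin degradation complex that beta-catenin itself induces, had 1.32, 2.23 and 3.84 CPM in Opa1cKO, against 0.44, 0.69 and 1.32 CPM in WT. In all, 5 of 6 Opa1cKO libraries lay above every WT library, and Opa1cKO 3 lay within the range of WT, at the level of WT 5 and WT 6. It was 2.61-fold higher (log2 fold change 1.39, SE 0.29, edgeR adjusted p = 0.00834). Axin2 passed without any 1 library (adjusted p up to 0.0285). It was the 1 member called without the libraries of contradicted sex (2.02, SE 0.38, adjusted p = 0.0323). That fit leaves out the highest WT values, WT 4, 5 and 6 (0.79, 1.32 and 1.32 CPM), and the highest Opa1cKO value, Opa1cKO 4 (3.84 CPM). In labelled males alone Axin2 was not called (0.95, SE 0.43, adjusted p = 0.309), against 1.85 (adjusted p = 0.0416) in labelled females. An antisense transcript, Gm11670, shares 3.8% of its exon bases.

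Nkd2 (ENSMUSG00000021567, chromosome 13, 73818534 to 73847631, minus strand), a Dishevelled-binding inhibitor, had 0.08, 0.49 and 11.4 CPM in Opa1cKO, against 0, 0.096 and 0.27 CPM in WT. The value of 11.4 CPM was Opa1cKO 6, and the other 5 Opa1cKO libraries lay at 0.81 CPM or below. The log2 fold change over all libraries was 4.30 (SE 1.05, edgeR adjusted p = 0.0232), and without Opa1cKO 6 it was 1.41 (SE 0.91, adjusted p = 0.454), so its call rests on that library. Opa1cKO 6 is also the library with the high growth plate and endplate sum, and a link to Nkd2 was not tested. The call was also lost without WT 4 (4.05, adjusted p = 0.0505). Its relative Nkd1 had 0.18, 0.60 and 0.87 CPM in Opa1cKO and 0.022, 0.20 and 0.33 CPM in WT and did not pass (1.53, SE 0.54, adjusted p = 0.087), except with sex taken from sex-linked reads (1.73, adjusted p = 0.0376).

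The most abundant intracellular genes were not called. Ctnnb1 had 298, 309 and 374 CPM in Opa1cKO and 298, 333 and 391 CPM in WT (log2 fold change -0.08, SE 0.09, edgeR adjusted p = 0.651). An opposite-strand gene, Ulk4, shares 14.6% of its exon bases. Axin1, the constitutive scaffold, had 60.5, 63.8 and 67.2 CPM in Opa1cKO and 62.9, 69.1 and 72.6 CPM in WT (-0.10, SE 0.07, adjusted p = 0.348). The TCF/LEF factor genes Tcf7 and Lef1 stood at 0.17 and 1.04 (adjusted p = 0.619 and 0.344), with Lef1 below 0.7 CPM in every library.

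**Figure D4:**
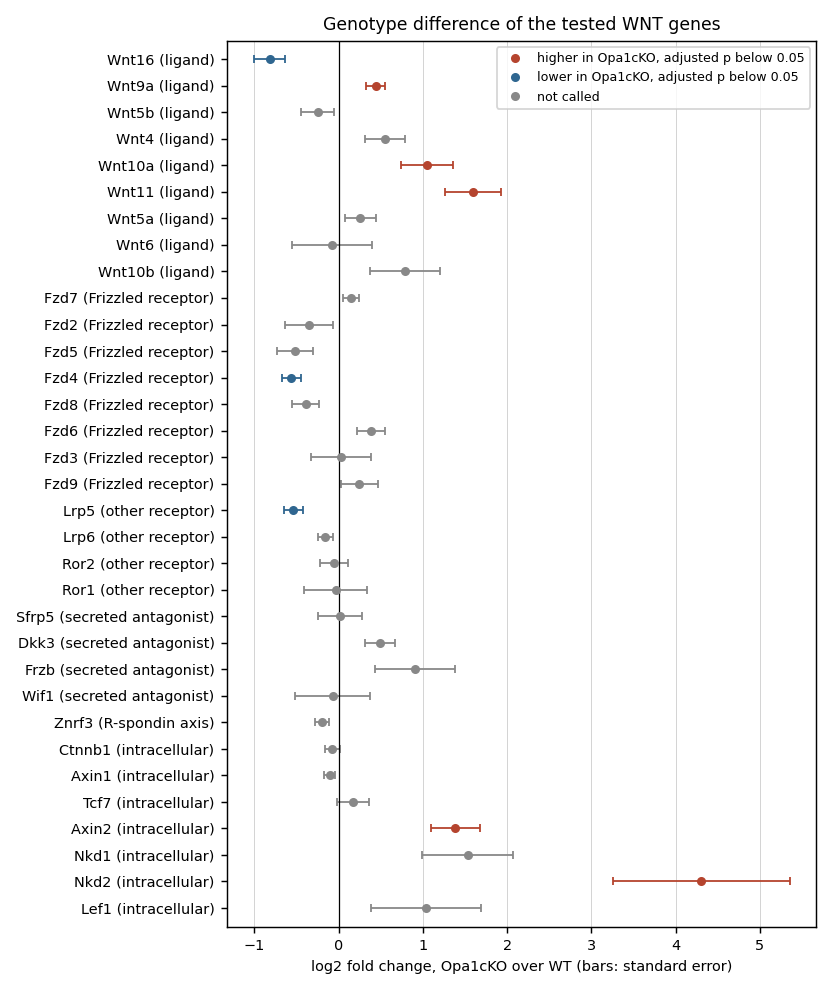
Log2 fold change of Opa1cKO over WT for each of the 33 tested WNT genes, with its standard error as a bar; red marks genes called higher, blue genes called lower and grey genes not called. The 5 red and 3 blue points are 24.2% of the 33, beside 10.2% of all genes tested. They lie among ligands, Frizzled and other receptors and intracellular genes. None lies among the secreted antagonists, of which only 4 were tested.

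The 23 members that did not pass the filter had at most 30 counts in any library. Wnt2, Wnt3, Wnt3a, Wnt9b, Rspo4 and Dkk4 had no count in any library. Wnt1, Wnt8a, Wnt8b, Dkk1, Sfrp1, Rspo1, Rspo2, Rspo3 and Lgr5 had 1 to 4 counts in their highest library. Fzd10 reached 30 counts, Fzd1 18 and Wnt2b 11. Some of these sums differed between genotypes without a test: Dkk2 had 5 counts over the 6 Opa1cKO libraries and 31 over the 6 WT libraries, Wnt7a 0 and 14, and Sfrp2 16 and 1, with 11 of the 16 in Opa1cKO 6. Sfrp4 had 2 counts in Opa1cKO and 18 in WT, of which 15 were in WT 5. These levels lie at or near the depth limit, and no fold is given.

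Other genes of the pathway, 106 from a list by role, gave 89 tested, of which 5 were higher and 7 lower in Opa1cKO, or 13.5%, beside 10.2% of all genes tested. Their median log2 fold change was 0.01. For 6 of the 89, or 6.74%, no Opa1cKO library fell in the WT range, beside 6.41% of all genes tested. Of 6 tested genes with a role in WNT secretion or handling, 4 were called (66.7%), with Trabd2b higher and Gpc3, Gpc6 and Porcn lower. Of 4 tested antagonists outside the members 1, Sostdc1, was called lower (25%). The share was 10.2% of all genes tested, and the list was written with earlier results of these data known. Sostdc1, a secreted antagonist of WNT and BMP signals, had 18.7, 34.3 and 55.0 CPM in Opa1cKO, against 109, 138 and 151 CPM in WT. Every Opa1cKO library was below every WT library (log2 fold change -1.90, SE 0.21, edgeR adjusted p = 0.000181), and it was the 1 gene of the 12 still called without the libraries of contradicted sex (-2.09, adjusted p = 0.00287). Gpc3, a glypican whose heparan sulfate chains bind WNT proteins, had 290, 417 and 559 CPM in Opa1cKO, against 736, 940 and 1165 CPM in WT (-1.14, SE 0.18, adjusted p = 0.00184). Its relative Gpc6 had 16.2, 27.8 and 40.0 CPM in Opa1cKO, against 40.0, 74.6 and 103 CPM in WT (-1.29, SE 0.27, adjusted p = 0.0109). For both glypicans every Opa1cKO library lay below every WT library.

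Trabd2b (Tiki2), a membrane protease that inactivates WNT proteins, was at 9.46 ± 7.16 CPM in Opa1cKO and 3.88 ± 1.39 CPM in WT (SD, n = 6 each; log2 fold change 1.46, edgeR adjusted p = 0.0151; 0.85, adjusted p = 0.0968, without Opa1cKO 6, its highest library). Porcn, the acyltransferase that lipidates WNT proteins, was at -0.42 (adjusted p = 0.0495) and lost its call without any 1 of 10 libraries, and the WNT carrier Wls was at -0.29 and not called (adjusted p = 0.0651). Of 25 tested transduction genes Dact3, a Dishevelled-binding inhibitor, was called, with 10.9, 17.4 and 21.9 CPM in Opa1cKO against 7.06, 8.66 and 9.41 CPM in WT, without overlap (log2 fold change 0.97, SE 0.16, edgeR adjusted p = 0.00241). Of 18 nuclear genes the TCF factor Tcf7l2 and the corepressor Tle4 were lower (-0.27 and -0.34, adjusted p = 0.0401 and 0.0296). Of 13 planar polarity genes Vangl1 and Daam2 were higher (0.35 and 0.53, adjusted p = 0.0236 and 0.0492) and Prickle1 lower (-0.34, adjusted p = 0.047). The shares called were 4% of transduction, 11.1% of nuclear and 23.1% of planar polarity genes, beside 10.2% of all genes tested.

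Of 15 tested genes that beta-catenin is known to induce in other tissues, 1 was called, or 6.67%, beside 10.2% of all genes tested. The median log2 fold change of the 15 was 0.45, against 0.01 for all genes tested, with 12 above 0 and 3 below. An unadjusted edgeR p below 0.05 was found for 7 of the 15, beside 3845 of all 15229 genes tested. Cd44, the hyaluronan receptor, had 101, 174 and 459 CPM in Opa1cKO, against 70.4, 88.7 and 133 CPM in WT (log2 fold change 1.33, SE 0.32, edgeR adjusted p = 0.0212). The highest value was Opa1cKO 6, without which it stood at 0.79 (adjusted p = 0.173). None of the 8 tested receptor genes outside the members was called by edgeR, beside 10.2% of all genes tested, and 2 had an unadjusted edgeR p below 0.05. With single libraries left out, Daam2 and Prickle1 kept their calls in 2 of 12 fits, Tcf7l2 in 5, Tle4 in 8 and Vangl1 in 10. Each of these 5 lost its call without Opa1cKO 6 or without WT 6, and Cd44 without WT 6 as well. With sex taken from sex-linked reads 13 genes were called (11.7% of all genes), and 8 of them were among the 12. Daam2, Prickle1, Porcn and Cd44 were not called in that fit (edgeR adjusted p = 0.064, 0.121, 0.135 and 0.0586). The count of 12 was 7 without Opa1cKO 1 or Opa1cKO 4, where 7.6% and 8.03% of all genes were called, and 5 without Opa1cKO 6 or WT 6, where 5.34% and 6.34% were, so fewer genes were called over the whole table too.

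**Figure D5:**
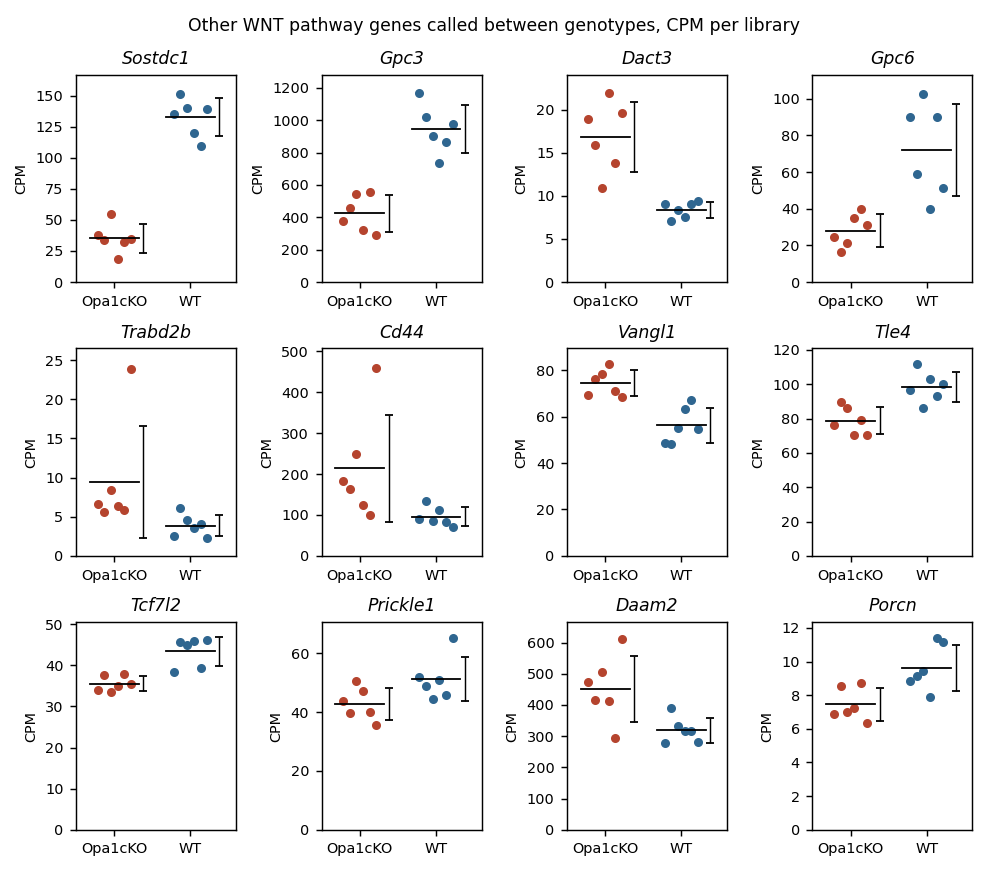
CPM of the 12 called genes of the wider WNT pathway, 1 point per library in order of replicate number (Opa1cKO red, left; WT blue, right), with the mean as a horizontal line and the SD (n = 6) as a bar. Sostdc1, Gpc3, Gpc6, Dact3, Vangl1 and Tcf7l2 show no overlap, and Opa1cKO 6 is the highest point for Trabd2b, Cd44 and Daam2. The 6 genes without overlap are 6.74% of the 89 tested, beside 6.41% of all genes tested.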

How the data were processed

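The authors deposited whole-number read counts for 32285 genes and a TPM table, in both of which each column matched 1 library. Reads were aligned with STAR 2.7.11b to mm10, per the submitters' processing notes; the sources used here do not name the counter, its annotation, its strand setting or the gene lengths behind the deposited TPM values. Per the labels' protocols the kit was stranded, removed ribosomal RNA and amplified by PCR, so counts are not independent molecules.

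The counts were analysed in R 4.3.3 with edgeR 4.0.16. Genes were kept by filterByExpr (minimum count 10, grouped by genotype), libraries were scaled by TMM, and genotype was tested beside labelled sex by robust quasi-likelihood in the 12 libraries together. P-values were adjusted by Benjamini-Hochberg for 15229 genes, and genes with an adjusted p under 0.05 are named as called. Fold changes are Opa1cKO over WT. The SE of an edgeR log2 fold change was derived as its absolute value divided by the square root of the quasi-likelihood F statistic. The fit was also run on simulated counts, with no outcome given here. They were drawn without a sex effect or a library set apart, so that run does not bear on those features of the data. Alternatives used DESeq2 1.42.0, limma 3.58.1 (voom, and log2 TPM with pseudocounts of 1 and 0.1), other scalings, filters and thresholds, other handling of sex, a replicate block and the removal of each library; a fit on libraries without Y-linked reads was added after the data were seen. Positions and overlapping exons come from GENCODE M21 (GRCm38), promoters from RefSeq on GRCm38.p6.

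The members, the gene lists and the marker lists were chosen with earlier results of these data known. Every called member and the 12 most abundant others are given by their lowest, median and highest library; of the other pathway genes, the called ones are named. Wls, Krtdap, Cd68, Cd163 and Csf1r were named after their values were seen. Replicate numbers of the labels were not used as pairs.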

Additional observations from a re-analysis of the deposited data

Results flagged for a closer look

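In 9 of 92 groups of 6 libraries (46 genes in 2 genotypes), 1 library stood apart from the other 5 by Dixon's criterion, where chance flags about 1 in 20. For 4 of the 9 that library was Opa1cKO 6. Nkd2 was at 11.4 CPM there, against 0.81 CPM or less in the other Opa1cKO libraries, Trabd2b at 23.9 CPM against 5.58 to 8.46 CPM, and Ror1 at 3.53 CPM against 0.79 to 1.80 CPM, while Wnt5a was low at 8.31 CPM against 15.4 to 19.0 CPM. In Opa1cKO 5, Wnt16 was at 142 CPM against 61.8 to 88.0 CPM in the other Opa1cKO libraries. In Opa1cKO 3, Ctnnb1 was at 374 CPM against 298 to 322 CPM. In WT 3, Wnt9a was at 52.8 CPM against 43.1 to 46.0 CPM in the other WT libraries. In WT 6, Dkk3 was low at 5.81 CPM against 8.67 to 10.2 CPM, and Prickle1 was high at 65.1 CPM against 44.6 to 52.1 CPM.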

How the results depend on the processing

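Of 29 alternatives, 22 kept the number of called WNT members within 1.5 times of 8 and 16 kept that of the other pathway genes within 1.5 times of 12. The member count was 5 with a replicate block, 3 at an adjusted p below 0.01, 1 without the libraries of contradicted sex, 1 in labelled females, 4 in labelled males and 3 in libraries without Y-linked reads, and it ran from 5 to 11 with single libraries left out. The count of other pathway genes was 4 with a replicate block, 22 by DESeq2, 7 with log2(TPM + 0.1), 3 at an adjusted p below 0.01, 23 below 0.10, 1 without the libraries of contradicted sex, 4 in labelled females, 3 in labelled males and 6 in libraries without Y-linked reads, and it ran from 5 to 17 with single libraries left out. Most of these fits have fewer libraries or residual degrees of freedom than the fit of all 12. Over all genes, the share called was 10.2% in the fit reported, 5.05% with the replicate block, 15.2% by DESeq2, 9.14% with log2(TPM + 0.1), 3.64% at an adjusted p below 0.01, 16.2% below 0.10, 2.07% without the libraries of contradicted sex, 1.9% in labelled females, 2.64% in labelled males, 7.09% in libraries without Y-linked reads and 5.34% to 13.0% with single libraries left out. Same-numbered libraries of the 2 genotypes had correlated deviations of -0.333 to 0.125, and none of the Opa1cKO libraries correlated best with its own number. No called value changed sign in any alternative, and 8 of the 25 members that were not called changed sign while staying uncalled. Of 27 alternative fits, Nkd2 was called in 16 and Wnt10a in 9. Each of these genes lost its call by limma-voom, with log2 TPM at either pseudocount and without a filter on low counts. Depth limits the 23 members that did not pass the filter.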

Other observations

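The 4 close pairs of WNT genes in the mouse genome were mostly unequal in this tissue. Wnt9a was among the most abundant ligands, while Wnt3a, 16175 bases away, had no count. Wnt10b was tested, while Wnt1, 11706 bases away, had 3 counts over all 12 libraries. Wnt9b and Wnt3, 24328 bases apart, both had none. Wnt10a and Wnt6, 6193 bases apart, were both tested.

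Over the 33 tested members, Opa1cKO 3 was the lowest library of its genotype 9 times and Opa1cKO 6 8 times. Among WT libraries WT 2 was the lowest 15 times and WT 3 the highest 9 times.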
